A study of Mus musculus with 51 samples.

Results

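The 8 RNA-seq libraries made from differentiating mouse embryonic stem cells (mESCs) at day 4 were compared between genotypes, 4 control and 4 maternal null, out of 51 samples in the series. They were chosen by the genotype and the day in their labels and by no measured value. Log2 RPKM values (reads scaled to exon length and library size, on a log2 scale) were deposited for 39 Hox genes and for 34 pluripotency and differentiation factors, and each gene was compared in both genotypes. Control libraries (Smchd1 wt) carried Smchd1[fl/+] and maternal null libraries (Smchd1 matΔ) carried Smchd1[del/+], with the maternal allele deleted by Zp3-Cre, which is active in the growing oocyte, so that cells of both genotypes kept the paternal allele. All lines were male C57BL/6/Cast F1 mESCs that were directed toward neuromesodermal progenitors (NMPs) with FGF from the start, with the Wnt activator CHIR99021 from day 2 and with GDF11 from day 3. By the labels, line 1 of each genotype gave replicates 1, 2 and 3 and line 2 gave replicate 4, although the study describes technical replicates shared evenly between lines from separate blastocysts. Libraries of a line share their cells, so the p-values below measure the spread between these libraries, which may be technical.

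Hox genes encode homeodomain transcription factors that give positions along the head to tail axis their identity. They lie in 4 clusters, and genes with low paralog numbers, at one end of a cluster, are switched on earlier and more anteriorly than those with high numbers. In the tailbud, Wnt and FGF signals open the anterior and central genes, partly through the Cdx factors, and GDF11 is a signal for the trunk to tail transition at which posterior genes are activated. SMCHD1 is a chromatin protein of the inactive X chromosome and of imprinted and clustered genes, and the oocyte supplies it to the early embryo. The comparison asked whether Hox expression at the end of the differentiation differed between cells that had and had not received maternal SMCHD1. The maternal null cells also carried a deleted Smchd1 allele, so the missing oocyte supply and heterozygosity cannot be told apart in these libraries. For this reason the study also differentiated heterozygous cells from a reciprocal cross. It reported no influence of heterozygosity on Hox expression, but lists no day 4 sample for that series.

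The values gave back whole reads for every gene in every day 4 library, with 0.01 of a read as the tolerance, and from them a depth of between 2678804 and 73851228 reads per library. The Hox genes together held between 2938 and 23203 reads per library, and between 1 and 6 of the 39 had no read. Control replicate 2 was the shallowest library and control replicate 4 the deepest, and these were also the libraries with the highest and the lowest Hox levels among the controls. Smchd1 was not in either log2 RPKM table. In the lines kept in 2i + LIF medium, before differentiation, its CPM (counts scaled to library size) was 117 ± 9.63 (SD, n = 3 lines) in control and 74.7 ± 10.7 (n = 3) in maternal null, and the groups did not overlap. The NMP marker Tbra was between 5.48 and 6.96 log2 RPKM in all day 4 libraries, and its partner Sox2 was between -0.29 and 2.76.

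Hox genes had lower mean levels in maternal null cells at day 4, but the libraries of a genotype differed so much from each other that no gene passed the test. The direction of the mean difference over the Hox1-9 genes was not the same in both lines, as given below. The mean log2 RPKM was lower in maternal null for 34 of 39 Hox genes (87.2%) and higher for 5 (12.8%), with a median difference of -0.75. All 28 genes with a mean above 1 RPKM were lower (100%), with a median difference of -0.78. Limma with Benjamini-Hochberg adjustment over the 39 genes called 0 genes (0%), and 0 had an unadjusted p under 0.05 (0%). The lowest unadjusted p was 0.14 and the lowest adjusted p was 0.65. No gene had groups that did not overlap (0%). The 95% interval of the difference included both 0 and -1 for all 39 genes, so these libraries could not tell equal levels from a difference of 1 log2 unit. EdgeR's quasi-likelihood test and limma-voom on the recovered reads also called 0 genes (0% each), with 0 at an unadjusted p under 0.05.

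The libraries moved up and down together across the Hox genes. The mean over the 27 Hox1-9 genes was 2.83, 3.83, 2.65 and 0.96 log2 RPKM in control replicates 1 to 4 and 2.45, 2.76, 0.79 and 1.43 in maternal null replicates 1 to 4. Control replicate 4 lay below the other controls and below 3 of the 4 maternal null libraries, and the groups overlapped. The group means were 2.57 ± 1.19 (SD, n = 4) in control and 1.86 ± 0.91 (n = 4) in maternal null, a difference of -0.71, or 0.61 times the control level. Of the 27 genes, 24 were highest of all 8 libraries in control replicate 2 and 17 were lowest in maternal null replicate 3. Without control replicate 4 the difference was -1.24, and without control replicate 2 it was -0.29. When both were left out it was -0.88. By line, the difference was -1.10 in line 1 and 0.47 in line 2, which had a single library of each genotype. The direction of this mean thus turned between the lines, but not evenly over its genes. In line 2 the difference was 1.07 for Hox1-4, 0.004 for Hox5-8 and -0.02 for Hox9. Control replicate 4, the line 2 control, had no Hoxa4 read and 1 Hoxa6 read. In bulk RNA, fewer Hox-expressing cells and less Hox RNA per cell cannot be told apart.

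Most of this spread was shared by the genes. The median SD of a Hox1-9 gene between libraries of a genotype was 1.06 log2 units, and it was 0.43 after the Hox1-9 mean of each library had been subtracted, with a smaller SD for 25 of 27 genes. On this centred scale, chosen after the data had been seen, 21 of the 39 genes were lower and limma called 0 of them (0%), with a lowest unadjusted p of 0.091. This scale tests each gene against the other Hox genes of its library and says nothing of their common level.

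Promoters are shown for 4 genes, none of which passed the test. Hoxa9 and Hoxd8 were the highest HoxA and HoxD genes in control cells, and Hoxa7 and Hoxb8 are central genes. Hoxa7 and Hoxb8 are among the 5 Hox windows with TTTATG counted below, and Hoxd8 is among the 4 with CTTTGA. Each window runs from 250 bases before to 50 after the annotated start (RefSeq, GRCm38.p6), and 22 of the 39 Hox genes had at least 1, with 24 windows in all. RefSeq and the annotation behind the spans given here place some starts differently. On the minus strand, the spans of Hoxa7 and Hoxa9 begin at 52221854 and 52231089, upstream of the windows shown. Capitals mark TTTATG, a core of the sites that Cdx factors bind, and CTTTGA, a core of the sites that the Wnt effectors LEF and TCF bind, on either strand. The windows are Hoxa7 at chr6:52218524-52218823 (minus strand), Hoxa9 at chr6:52227321-52227620 (minus strand), Hoxb8 at chr11:96281655-96281954 (plus strand) and Hoxd8 at chr2:74704365-74704664 (plus strand).
Hoxa7: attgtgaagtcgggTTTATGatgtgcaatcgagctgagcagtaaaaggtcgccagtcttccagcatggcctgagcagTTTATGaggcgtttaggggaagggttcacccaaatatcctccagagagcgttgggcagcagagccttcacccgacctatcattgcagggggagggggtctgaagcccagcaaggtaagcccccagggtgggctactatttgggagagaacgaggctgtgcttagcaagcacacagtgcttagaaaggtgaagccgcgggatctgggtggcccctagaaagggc
Hoxa9: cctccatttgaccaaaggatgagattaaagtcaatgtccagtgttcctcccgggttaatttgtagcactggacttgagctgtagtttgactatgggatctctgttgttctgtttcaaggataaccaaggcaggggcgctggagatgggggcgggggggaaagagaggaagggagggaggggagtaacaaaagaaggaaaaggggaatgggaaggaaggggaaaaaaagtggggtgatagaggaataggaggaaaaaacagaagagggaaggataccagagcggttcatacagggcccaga
Hoxb8: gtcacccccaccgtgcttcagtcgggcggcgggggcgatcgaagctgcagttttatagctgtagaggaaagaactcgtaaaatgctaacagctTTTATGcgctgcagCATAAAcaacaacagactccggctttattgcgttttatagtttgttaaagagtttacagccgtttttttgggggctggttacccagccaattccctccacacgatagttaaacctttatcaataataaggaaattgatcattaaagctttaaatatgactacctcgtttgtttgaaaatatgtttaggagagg
Hoxd8: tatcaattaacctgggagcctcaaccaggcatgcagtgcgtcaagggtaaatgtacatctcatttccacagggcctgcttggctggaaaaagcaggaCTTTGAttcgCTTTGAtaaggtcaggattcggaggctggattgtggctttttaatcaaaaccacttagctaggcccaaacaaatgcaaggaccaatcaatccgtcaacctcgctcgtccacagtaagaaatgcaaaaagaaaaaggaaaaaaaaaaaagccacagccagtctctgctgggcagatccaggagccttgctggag
TTTATG was in 5 of 24 Hox windows (20.8%) and in 11.9% of all 32851 windows, and CTTTGA was in 4 Hox windows (16.7%) and in 16% of all windows. The TTTATG matches of Hoxa7 began 236 and 173 bases before its start and those of Hoxb8, on opposite strands, 157 and 143 bases before. The CTTTGA matches of Hoxd8 began 153 and 143 bases before its start, and Hoxa9 held neither motif.

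The HoxA cluster mean over 11 genes was 1.65, 2.84, 1.44 and -0.51 log2 RPKM in control replicates 1 to 4 and 1.59, 1.73, -0.69 and -0.50 in maternal null replicates 1 to 4. Control replicate 4 lay among the low maternal null libraries, and the groups overlapped. These cluster means include genes with few or no reads. In control replicate 4, Hoxa4 had no read (-7.03 log2 RPKM) and Hoxa6 had 1 (-6.01), and maternal null replicates 3 and 4 held 0 and 1 Hoxa13 reads. The means were 1.35 ± 1.39 (SD, n = 4) and 0.53 ± 1.31, a difference of -0.82, and 10 of 11 genes were lower, with a median of -0.83 beside -0.75 over all 39 genes. Without control replicate 2 the cluster difference was -0.33, and without control replicate 4 it was -1.44.

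Hoxa9 (chr6:52223100-52231089), a gene of the posterior trunk, was 4.42, 5.11, 4.13 and 2.33 log2 RPKM in control and 4.02, 3.31, 2.13 and 2.09 in maternal null, each in the order of the replicate numbers. Replicates 3 and 4 of maternal null were lowest and 3 of 4 controls highest, and the difference was -1.11 ± 0.84 (SE, limma adjusted p = 0.65).

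Hoxa2, which sets second branchial arch identity, was 1.15, 2.88, 1.23 and 0.06 log2 RPKM in control and 1.16, 1.95, -3.72 and 0.75 in maternal null. Its difference of -1.29 ± 1.15 (SE) rested on maternal null replicate 3, which held 2 reads of Hoxa2 (95% Poisson interval 0.24 to 7.22, counting error only), and it was -0.04 without that library. Hoxa10, of the group that suppresses ribs in the lumbar region, was 2.01, 3.60, 1.99 and 1.13 in control and 1.97, 2.40, 0.52 and -1.67 in maternal null. Maternal null replicate 4 was lowest, with 10 reads (interval 4.80 to 18.4), and the difference was -1.37 ± 0.97 with it and -0.55 without it. Both adjusted p values were 0.65.

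A trio of HoxA genes of low level were added after their values had been seen, since they lay at the extremes. Hoxa13, a gene of the tail end and the distal limb, had the lowest difference of all Hox genes, -1.63 ± 1.21 (SE, adjusted p = 0.65). Its log2 RPKM was 0.12, -0.73, -0.86 and -2.26 in control and 0.55, -0.87, -5.35 and -4.58 in maternal null, where the last pair were the lowest of all. Its reads were 45, 4, 21 and 38 in control and 52, 13, 0 and 1 in maternal null, so that pair rested on 0 and 1 reads. EdgeR on the reads gave a Hoxa13 difference of -0.24. Hoxa4 had the highest difference, 1.24 ± 1.40 (adjusted p = 0.65), with 7, 8, 17 and 0 reads in control and 26, 16, 5 and 5 in maternal null. The library without a Hoxa4 read was control replicate 4, the deepest. Without it the Hoxa4 difference was -0.39, and edgeR on the reads of all 8 libraries gave 0.11. Hoxa6 had 19, 5, 12 and 1 reads in control and 3, 2, 2 and 0 in maternal null. Without control replicate 4 it was the single Hox gene that limma called (1 of 39, 2.56%), with a difference of -2.95 and an adjusted p of 0.044, beside -1.34 and 0.65 with all libraries.

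In the HoxB cluster, all 10 genes had lower means in maternal null, with a median difference of -0.65 beside -0.75 over all Hox genes. The cluster mean was 2.38, 3.27, 1.77 and 0.72 log2 RPKM in control and 1.63, 2.45, 0.33 and 0.98 in maternal null, by replicate number. Maternal null replicate 3 was lowest and control replicate 2 highest, and the groups overlapped. The means were 2.03 ± 1.07 (SD, n = 4) and 1.35 ± 0.91, a difference of -0.69. It was -0.27 without control replicate 2 and -1.12 without control replicate 4.

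Hoxb9 (chr11:96271457-96276595), which acts in the thorax with its paralogs, had the highest mean of any Hox gene in both genotypes. Its values were 4.13, 5.29, 5.22 and 4.13 log2 RPKM in control and 4.11, 4.43, 3.64 and 4.02 in maternal null. Here 2 controls lay above all maternal null libraries and the other two beside them, and the difference was -0.64 ± 0.71 (SE, adjusted p = 0.65). The next gene in both genotypes differed from Hoxb9 by less than the SD between libraries. Hoxb7 (chr11:96286623-96290162), a central gene, had the lowest unadjusted limma p of all (0.14). Its values were 3.18, 4.76, 3.19 and 2.67 in control and 2.19, 3.07, 1.71 and 2.03 in maternal null, so that all 4 controls lay above 3 of the 4 maternal null libraries. The difference was -1.20 ± 0.76 (adjusted p = 0.65), or 0.43 times the control level, with a 95% interval from -2.84 to 0.44.

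Hoxb2, a hindbrain gene, had one of the smallest differences. Its values were 2.66, 3.75, 1.92 and 0.58 log2 RPKM in control and 2.42, 3.07, 0.30 and 1.61 in maternal null. The ranges overlapped nearly whole, and the difference of -0.38 ± 0.90 (SE, adjusted p = 0.76) was 0.13 without control replicate 2 and 0.14 without maternal null replicate 3. Hoxb6, which can induce ribs when it is misexpressed, was 2.54, 3.67, 2.56 and 1.40 in control and 1.64, 3.06, 1.32 and 1.56 in maternal null. Replicate 2 was highest in both genotypes, and the difference was -0.65 ± 0.78 (adjusted p = 0.65).

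In the HoxC cluster, 6 of 9 genes were lower and 3 higher, with a median difference of -0.69. The 3 that were higher, Hoxc11, Hoxc12 and Hoxc13, are the most posterior ones and had few reads. The cluster mean was 1.21, 2.80, 0.96 and -0.63 log2 RPKM in control and 0.98, 1.81, -0.08 and 0.07 in maternal null. Control replicate 4 was lowest of all and the groups overlapped, with means of 1.08 ± 1.40 (SD, n = 4) and 0.69 ± 0.88 and a difference of -0.39. It was 0.18 without control replicate 2 and -0.96 without control replicate 4. Control replicate 4, the deepest library, had no Hoxc11 or Hoxc12 read, so its values for these genes follow its depth. Over the 5 Hox1-9 genes of the cluster alone, all lower, the difference was -0.79. On these genes control replicate 4 was at 1.93, above maternal null replicates 3 and 4 (1.56 and 1.73), and the groups still overlapped.

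Hoxc6 (chr15:102998257-103011881), a gene of the thoracic boundary, was the highest HoxC gene. It was 3.31, 5.10, 3.71 and 2.31 log2 RPKM in control and 2.91, 3.91, 1.59 and 2.31 in maternal null. Control replicate 4 lay at the level of the fourth maternal null library, and the difference was -0.93 ± 0.84 (SE, adjusted p = 0.65). Hoxc8, a gene of the lower thorax, was 2.86, 3.87, 2.85 and 1.94 in control and 3.02, 2.58, 1.05 and 1.33 in maternal null. Here 2 maternal null libraries lay below all controls, and the difference was -0.88 ± 0.79 (adjusted p = 0.65). Annotated exons of Hoxc5 and Hoxc10 share 166 bases and those of Hoxd3 and Hoxd4 share 388, so the values of these genes are uncertain where reads fell there.

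Hoxc12 shows what the lowest values hold. It had no read in any of the 8 libraries, and a gene without reads had been given the value of 0.9 reads, as the steps of the values show. Hoxc12 was -4.26, -1.62, -4.14 and -6.40 log2 RPKM in control and -4.04, -3.46, -4.09 and -3.47 in maternal null. These values follow the depth of each library, from the shallowest control replicate 2 to the deepest control replicate 4, and its difference of 0.34 is a difference in depth. Hoxd12 had reads in 2 libraries (2 reads in control replicate 2 and 6 in maternal null replicate 2), and Hoxc11 had 10, 10, 1 and 0 reads in control and 6, 25, 0 and 0 in maternal null. Their differences of 0.74 and 0.45 include such libraries without reads.

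In the HoxD cluster, 8 of 9 genes were lower, with a median difference of -0.78, and the exception was Hoxd12. The cluster mean was 1.94, 3.34, 1.79 and 0.19 log2 RPKM in control and 1.87, 2.54, 0.31 and 0.15 in maternal null. The lowest library of each genotype was at the same level, and the groups overlapped, with means of 1.81 ± 1.29 (SD, n = 4) and 1.22 ± 1.18 and a difference of -0.59. It was -0.09 without control replicate 2 and -1.14 without control replicate 4.

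Hoxd8 (chr2:74704615-74707933), a central gene, was the highest HoxD gene over all libraries. It was 4.92, 5.32, 4.56 and 3.61 log2 RPKM in control and 4.59, 4.64, 2.89 and 2.09 in maternal null. Maternal null replicates 3 and 4 lay below all controls, and the difference was -1.05 ± 0.83 (SE, adjusted p = 0.65). Its neighbour Hoxd9 (chr2:74697727-74700208) was 4.50, 4.61, 4.30 and 3.12 in control and 4.42, 4.92, 2.70 and 3.62 in maternal null. A maternal null library was the highest of all 8, and the difference was -0.22 ± 0.78 (adjusted p = 0.79), the smallest of the genes above 1 RPKM. It turned to 0.18 without maternal null replicate 3 and was -0.56 without control replicate 4.

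Hoxd1, the most anterior gene of the cluster, was 2.84, 3.75, 2.74 and 1.07 log2 RPKM in control and 2.77, 2.25, 1.32 and 1.68 in maternal null. A control library was both highest and lowest, and the difference was -0.60 ± 0.80 (SE, adjusted p = 0.65). At the posterior end Hoxd11, of the sacral group, was 1.56, 4.06, 1.64 and 0.95 in control and 1.52, 3.03, 0.41 and -1.18 in maternal null. Replicate 2 was highest in both genotypes and maternal null replicate 4 lowest, and the difference was -1.11 ± 1.01 (adjusted p = 0.65).

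**Figure D1:**
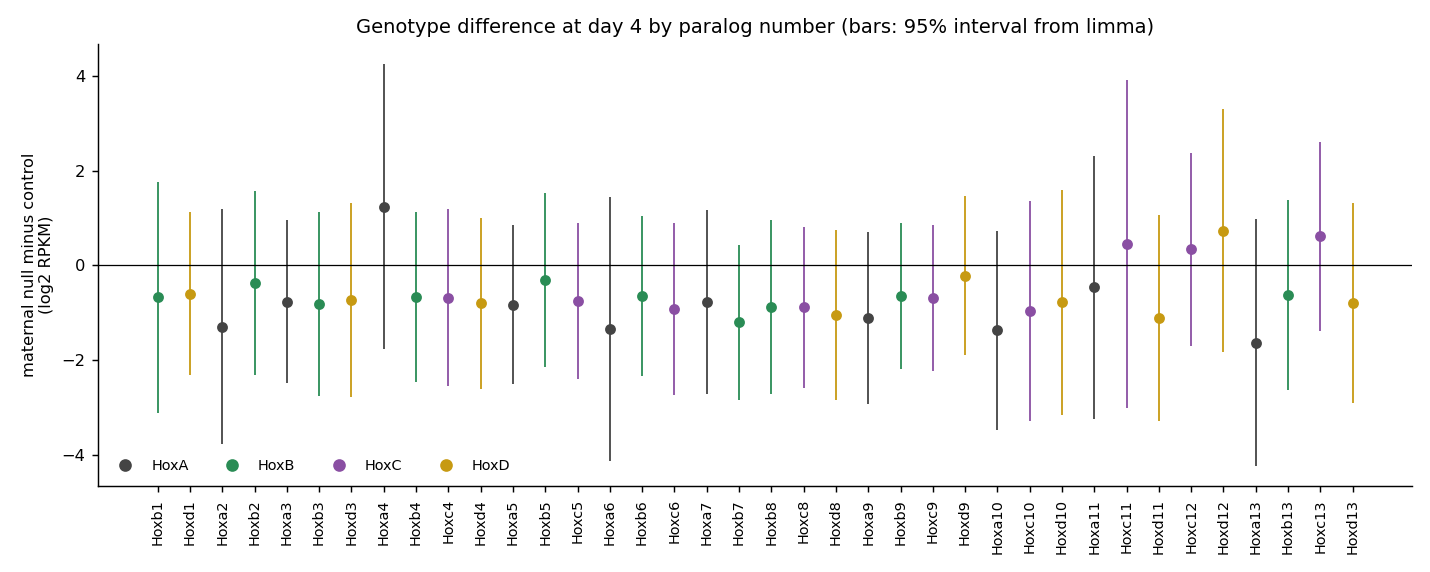
Difference in mean log2 RPKM between maternal null and control (y axis, points) for Hox genes (x axis, ordered by paralog number, coloured by cluster), with 95% intervals from limma (vertical lines). Points lie between -1.63 and 1.24, with 5 above 0, and every interval includes 0.

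Ordered along the clusters, the mean was lower in maternal null in each of the 4 paralog ranges, and the groups overlapped in each. The anterior Hox1-4 genes (12 genes) had a difference of -0.57, the central Hox5-8 genes (11) of -0.87, the Hox9 genes (4) of -0.67 and the posterior Hox10-13 genes (12) of -0.47. Lower means were found in 11 of 12 anterior, 11 of 11 central, 4 of 4 Hox9 and 8 of 12 posterior genes. The medians were -0.69, -0.88, -0.67 and -0.71 in the same order, beside -0.75 over all Hox genes. With only genes above a mean of 1 RPKM, the Hox1-4, Hox5-8, Hox9 and Hox10-13 differences were -0.74, -0.88, -0.67 and -1.06, so the order of the ranges changed with the filter. By single paralog number the differences were between -1.04 (Hox10) and -0.23 (Hox4) for 12 of 13 numbers, and 0.54 for Hox12, whose pair of genes had almost no reads.

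The central Hox5-8 mean was 2.60, 3.62, 2.45 and 0.94 log2 RPKM in control and 1.91, 2.57, 0.70 and 0.95 in maternal null, by replicate number. Control replicate 4 lay at the level of the fourth maternal null library, and the groups overlapped (2.40 ± 1.10 and 1.53 ± 0.87, SD, n = 4 each). The anterior Hox1-4 mean was 2.64, 3.73, 2.29 and 0.31 in control and 2.50, 2.59, 0.23 and 1.38 in maternal null. The lowest library of both genotypes was again at a similar level, and the difference was -0.08 without control replicate 2 and -1.22 without control replicate 4.

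The Hox9 mean was the highest of the ranges, at 4.03, 4.68, 4.25 and 2.94 log2 RPKM in control and 3.79, 3.79, 2.74 and 2.91 in maternal null. All maternal null libraries lay below 3 of the 4 controls. The posterior Hox10-13 mean was -0.51, 1.33, -1.11 and -2.36 in control and -0.55, 0.69, -1.97 and -2.69 in maternal null. Replicate 2 was highest and replicate 4 lowest in both genotypes, and the difference was 0.20 without control replicate 2 and 0.05 without maternal null replicate 4.

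**Figure D2:**
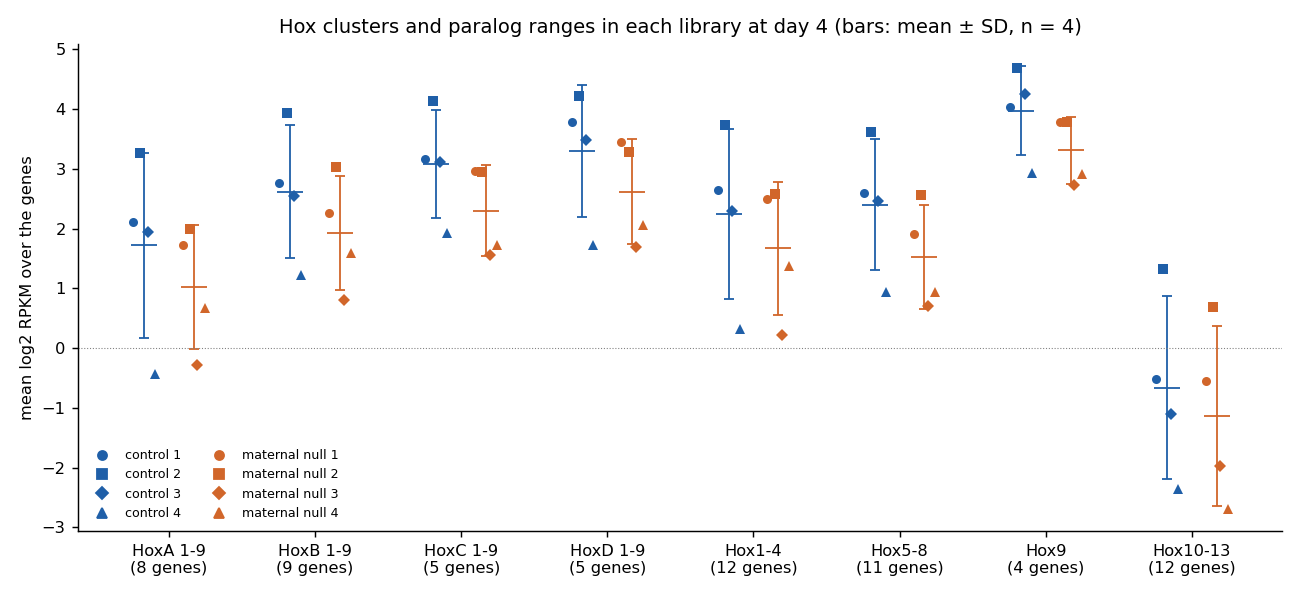
Mean log2 RPKM (y axis) over the genes of each cluster (numbers 1-9) and of each paralog range (x axis) in each library, with the mean ± SD of 4 libraries. The groups overlap in all 8 sets, and the control mean is the higher one in each.

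Differences between ranges within a library do not depend on its scaling. Hox5-8 minus Hox1-4 was -0.04, -0.11, 0.16 and 0.63 log2 units in control and -0.59, -0.02, 0.47 and -0.44 in maternal null. The means were 0.16 ± 0.33 (SD, n = 4) and -0.14 ± 0.48, and the groups overlapped. Hox10-13 minus Hox1-4 was -3.16, -2.41, -3.40 and -2.67 in control and -3.05, -1.89, -2.19 and -4.08 in maternal null, with means of -2.91 ± 0.45 and -2.80 ± 0.98. The groups overlapped, and the Hox10-13 means include genes without reads in some libraries.

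The same genes were compared with days 2.5 and 3, which share no library with day 4 (4 control and 3 maternal null libraries at day 2.5, 4 and 4 at day 3). By the labels, all 3 maternal null libraries of day 2.5 came from line 1, while the other groups included line 2. The change from day 2.5 to day 4 therefore mixes day with line. With line 1 alone, 33 of 39 genes had a lower difference at day 4 than at day 2.5, with a median change of -1.24. The genotype difference of the Hox1-9 mean was 0.59 at day 2.5, -0.25 at day 3 and -0.71 at day 4, while the control mean was -1.28 ± 0.23, 0.99 ± 1.24 and 2.57 ± 1.19 log2 RPKM (SD). For 33 of 39 genes the difference was lower at day 4 than at day 2.5 (84.6%), with a median change of -1.24, and for 32 it was lower than at day 3 (82.1%), with a median of -0.54. Limma's test of that change called 0 of 39 genes against either day (0%), and 1 gene had an unadjusted p under 0.05 against each (2.56%). Without control replicate 2, 23 of 39 were lower than at day 3, with a median of -0.04.

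Hoxc8 was the gene below 0.05 against day 2.5. It was -4.06 ± 1.36 log2 RPKM in control and -2.27 ± 0.85 in maternal null at day 2.5 (SD) and 2.88 ± 0.79 and 1.99 ± 0.95 at day 4. The genotype difference went from 1.79 to -0.88, a change of -2.67 ± 1.19 (SE, limma adjusted p = 0.52, unadjusted 0.033). Hoxa10 and Hoxb8 followed with changes of -2.16 ± 1.34 and -2.13 ± 1.16 (adjusted p = 0.52 each). The day 2.5 means of Hoxc8 lay below 1 RPKM, as did those of Hoxa10 (-3.62 ± 0.70 in control and -2.83 ± 0.64 in maternal null, SD). Reads were recovered for day 4 only, so the counts behind these low values are unknown. The highest changes were those of Hoxd12, Hoxc11 and Hoxc12, which had few or no reads at day 4. Hoxa13 was the gene below 0.05 against day 3, with a change of -3.28 ± 1.43 (SE, limma adjusted p = 0.998, unadjusted 0.030), from a difference of 1.64 at day 3 to -1.63 at day 4. The day 4 difference rested on maternal null replicates 3 and 4, which held 0 and 1 Hoxa13 reads.

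**Figure D3:**
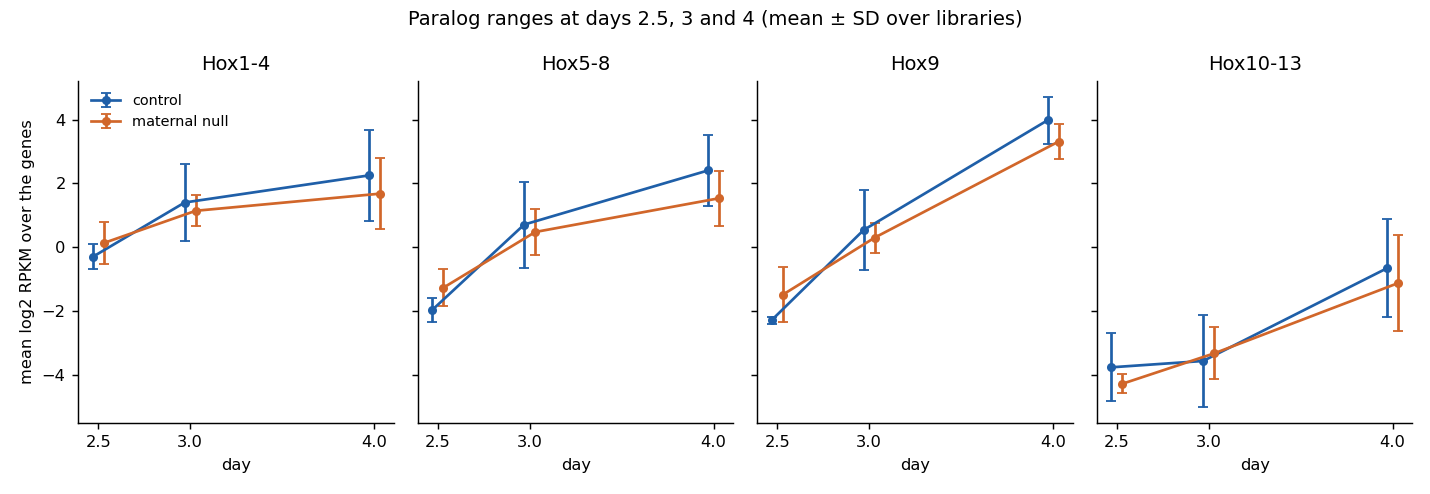
Mean log2 RPKM over the genes of 4 paralog ranges (y axis) at days 2.5, 3 and 4 (x axis) in control and maternal null libraries (mean ± SD). The maternal null mean of Hox1-4, Hox5-8 and Hox9 lies above the control mean at day 2.5 and below it at days 3 and 4, with bars that overlap at all 3 days.

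The pluripotency and differentiation factors lay in both directions. Of 34 factors, 15 had lower means in maternal null (44.1%) and 19 higher (55.9%), with a median difference of 0.21. Of the 28 with a mean above 1 RPKM, 15 were lower (53.6%). Limma, adjusted over the 34, called 0 of them (0%), 0 had an unadjusted p under 0.05 (0%), and the lowest adjusted p was 0.97. No factor had groups that did not overlap (0%). EdgeR and limma-voom on the recovered reads also called 0, with 0 at an unadjusted p under 0.05.

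Among the 19 pluripotency factors other than Sox2, 16 had higher means in maternal null and 3 lower, and all 9 of the naive list were higher. Of the general list (Pou5f1, Nanog, Sox2, Sall4, Utf1 and Zfp42), 3 were higher and 3 lower, with a mean difference of 0.10 and a median of 0.02. In the naive list, Klf2 had 7, 4, 1 and 92 reads in control and 20, 43, 5 and 8 in maternal null. Nr0b1 had no read in control replicate 2 and maternal null replicate 1. The mean over the 19 was 1.30, 0.82, 0.53 and 1.25 log2 RPKM in control and 1.26, 2.00, 1.02 and 0.96 in maternal null. Maternal null replicate 2 was highest, and the rest overlapped, with means of 0.98 ± 0.37 (SD, n = 4) and 1.31 ± 0.48 and a median gene difference of 0.30 beside 0.21 over all 34. Without that library the median over all 34 factors was -0.10, with 19 lower. By line, the difference of the 19-factor mean was 0.54 in line 1 and -0.30 in line 2, which had a single library of each genotype. That of the naive list was 0.92 and -0.90. Pou5f1, the core pluripotency factor Oct4, was 5.45, 3.27, 4.65 and 4.95 in control and 5.22, 4.81, 5.48 and 5.87 in maternal null. Control replicate 2 was lowest, with 58 reads, and the difference was 0.77 ± 0.61 (SE, adjusted p = 0.97) and 0.33 without it.

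Nanog was 3.79, 2.41, 2.10 and 2.70 log2 RPKM in control and 3.94, 2.94, 0.75 and 2.44 in maternal null. A maternal null library was both highest and lowest, and the difference was -0.24 ± 0.74 (SE, adjusted p = 0.97). Klf4, a factor of the naive state, was 1.38, -1.03, 0.60 and 1.38 in control and 0.52, 2.78, 1.91 and 0.70 in maternal null, a difference of 0.90 ± 0.75. Gdf3, a TGF-beta family ligand of stem cells, had the highest factor difference among those above 1 RPKM in a genotype, 1.02 ± 0.64. It was -1.35, -0.11, -1.52 and -0.29 in control and -0.17, 1.46, -0.59 and 0.09 in maternal null, with 2 maternal null libraries above all controls.

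Fbxo15, an F-box gene used as a marker of undifferentiated cells, was 1.00, 0.29, 0.50 and 2.11 log2 RPKM in control and 1.29, 1.25, 3.97 and 1.202 in maternal null. Its difference of 0.95 ± 0.76 (SE, adjusted p = 0.97) rested on maternal null replicate 3 and was 0.27 without it. Gbx2, a gene of both stem cells and the posterior neural plate, had the lowest factor difference, -1.27 ± 1.24. It was 3.41, 4.54, 1.78 and 0.23 in control and 2.88, 3.19, -2.21 and 1.03 in maternal null, and the difference was -0.12 without maternal null replicate 3, which held 7 reads.

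**Figure D4:**
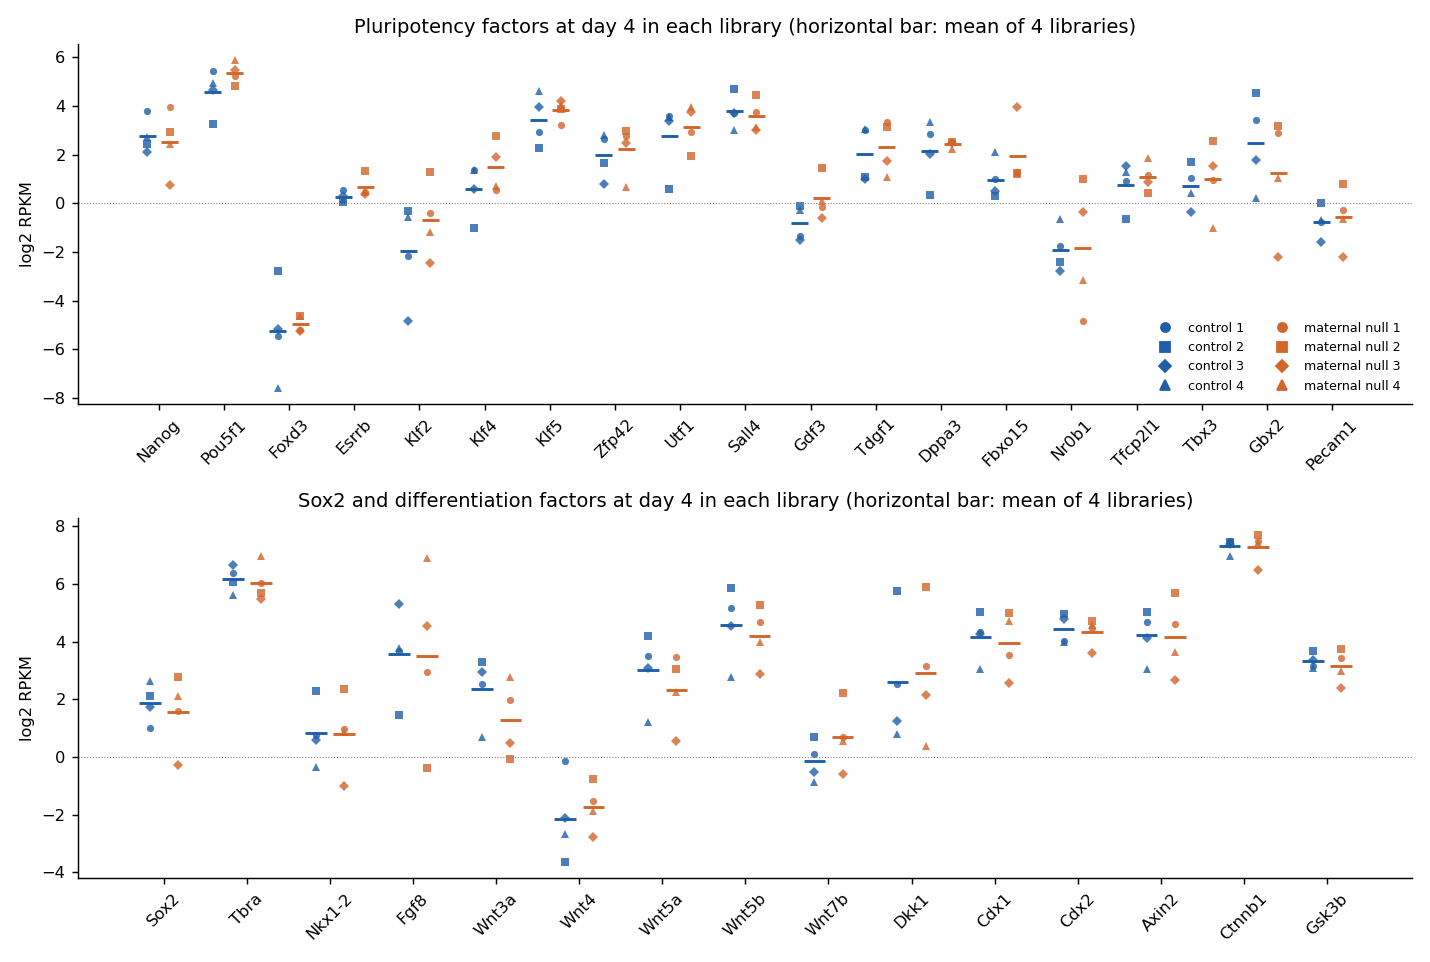
Log2 RPKM (y axis) of 19 pluripotency factors (top) and of Sox2 and 14 differentiation factors (bottom) in the 4 control and 4 maternal null libraries, with group means as horizontal bars. The groups overlap for all 34 factors.

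Of the NMP factors, Tbra and Sox2 had differences nearer 0 than Wnt3a (-1.08) and Wnt5a (-0.67), and each of these intervals was wide and included 0. Tbra (brachyury, T), the mesodermal and NMP factor, was 6.38, 6.06, 6.65 and 5.63 log2 RPKM in control and 6.05, 5.70, 5.48 and 6.96 in maternal null, a difference of -0.13 ± 0.56 (SE, adjusted p = 0.97) with an interval from -1.37 to 1.11. Sox2, the neural and pluripotency factor, was 1.00, 2.12, 1.74 and 2.65 in control and 1.59, 2.76, -0.29 and 2.12 in maternal null. Maternal null replicate 3 was lowest, and the difference was -0.33 ± 0.73 with it and 0.28 without it. All 9 genes of the NMP and posterior list, which holds Tbra, Sox2, Nkx1-2, Cdx1, Cdx2, Wnt3a, Wnt5a, Wnt5b and Fgf8, had lower means, with a median of -0.21 beside 0.21 over all factors. The mean difference of the list was -0.33, and 0.009 without maternal null replicate 3. By line, it was -0.88 in line 1 and 1.31 in line 2, which had a single library of each genotype.

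Cdx1 and Cdx2, the factors that act upstream of central Hox genes, had small differences. Cdx1 was 4.34, 5.04, 4.26 and 3.05 log2 RPKM in control and 3.55, 4.999, 2.58 and 4.73 in maternal null, a difference of -0.21 ± 0.70 (SE). Cdx2 was 4.04, 4.96, 4.78 and 3.99 in control and 4.48, 4.71, 3.60 and 4.59 in maternal null, a difference of -0.10 ± 0.55, with an interval from -1.31 to 1.11. Maternal null replicate 3 was the lowest library for both, as it was for 8 of the 14 differentiation factors and for 17 of the 27 Hox1-9 genes. In that library the mean over the 14 differentiation factors was 2.10, against 3.29, 3.58 and 3.30 in the other maternal null libraries. Without it the Hox1-9 difference was -0.35 in place of -0.71, and that of Hox1-4 was -0.09 in place of -0.57. The HoxA, HoxB and HoxD differences were then -0.42, -0.34 and -0.29.

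Of the Wnt genes, Wnt3a, which maintains tailbud progenitors, had a difference of -1.08 ± 0.80 (SE, adjusted p = 0.97). It was 2.53, 3.28, 2.96 and 0.71 log2 RPKM in control and 1.98, -0.09, 0.47 and 2.79 in maternal null. Maternal null replicates 2 and 3 lay below all controls and replicate 4 among them. Wnt5a, a ligand of axial elongation, was 3.51, 4.19, 3.10 and 1.22 in control and 3.47, 3.06, 0.56 and 2.25 in maternal null (difference -0.67 ± 0.82), and Wnt5b had a difference of -0.38 ± 0.78. Wnt7b had a difference of 0.86 ± 0.69, with 3 maternal null libraries at 0.54 or above and 1 control there. Of the pathway components Dkk1, Axin2, Ctnnb1 and Gsk3b, 3 had lower means and 1 higher, with differences between -0.18 and 0.31.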

How the data were processed

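The 8 day 4 libraries (4 Smchd1 wt and 4 Smchd1 matΔ) were grouped by their labels. Per the labels and the study's methods, reads were trimmed with Trim Galore 0.4.4 and mapped to GRCm38.p6 with HISAT2 2.0.5, and the authors deposited log2 RPKM values from SeqMonk, corrected for library size and transcript length. The authors also deposited raw read counts for all genes, without normalization. From these, Smchd1 CPM values were taken in the 6 lines kept in 2i + LIF, and 45 time course columns were not used because their headers are unreliable.

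Members, lists and tests were chosen with earlier results of these data known. Maternal null minus control was tested with limma 3.58.1 in R 4.3.3 on the log2 RPKM values, with Benjamini-Hochberg adjustment within each table (39 Hox genes, 34 factors) at 0.05 and no added pseudocount or filter. Clusters, paralog ranges and factor lists are means over genes in each library and were not tested. Change between days was tested as an interaction in 1 limma fit over days 2.5, 3 and 4. Whole reads were recovered from the steps of the values (584 values, largest distance from a whole read 0.00502), and exon lengths of GENCODE M21 gave the depth they imply. EdgeR 4.0.16 and limma-voom were run on these reads. Genes were named by rule as the highest of each cluster, the 5 lowest and 5 highest differences among genes with a group mean above 1 RPKM, any gene below 0.05 or without overlap, the 3 extremes each way against day 2.5, and Sox2, Tbra, Pou5f1, Nanog and the Cdx genes. One gene that the rule names is not reported here. Alternatives were log2(RPKM + 1), log2(RPKM + 0.1), a filter at a mean of 1 RPKM, each library left out, line 1 alone, library weights, exact permutation, 1 fit over all groups, the replicate number as a block, and for clusters and ranges the median, summed RPKM, summed reads and centring. Plots and summaries used Python with numpy, pandas and matplotlib.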

Additional observations from a re-analysis of the deposited data

Results flagged for a closer look

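Among 144 sets of 4 libraries, 2 held a library far from the other 3. The gap over range was there above the 95% critical value of Dixon's test, and chance alone would mark about 1 in 20 sets. The sets were each named gene, cluster, range and list, and each within-library difference between ranges or between clusters, in each genotype. Fbxo15 was at 3.97 log2 RPKM in maternal null replicate 3, with the other 3 maternal null libraries between 1.202 and 1.29. The HoxB 1-9 mean minus the HoxA 1-9 mean was 1.66 log2 units in control replicate 4 and between 0.60 and 0.67 in the other controls. That library had no Hoxa4 read and 1 Hoxa6 read.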

How the results depend on the processing

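Limma called 0 of 39 Hox genes and 0 of 34 factors, and leaving out each library in turn gave 0 to 1 Hox gene and 0 factors. The 1 gene was Hoxa6, without control replicate 4. The number of genes lower in maternal null then ranged from 30 to 38 for the Hox genes and from 6 to 19 for the factors, where 6 was found without maternal null replicate 3, and the median Hox difference ranged from -1.21 to -0.32. Centring each library on its Hox1-9 mean, chosen after seeing the data, moved the median Hox difference to -0.04 and left 21 genes lower (19 without control replicate 4), and moved the Hox9 group from -0.67 to 0.041, by its construction. With genes above a mean of 1 RPKM only, 20 of 20 genes were lower at day 4 than at day 2.5 and 21 of 23 than at day 3, fewer because fewer genes were tested. Leaving out 1 library turned the direction for HoxC (0.18 without control replicate 2), Hox2 (0.05 without maternal null replicate 3), Hox4 (0.34 without control replicate 2 and 0.16 without maternal null replicate 3), Hox11 (0.59 without control replicate 2 and 0.49 without maternal null replicate 4) and Hox10-13 (0.20 and 0.05 without the same libraries). For Hox12, which had 8 reads in all, it did so without control replicate 4 (-0.28), and summed reads gave no value. Genes with few or no reads entered the HoxC and Hox4 means too. Over the HoxC genes of numbers 1-9 the difference without control replicate 2 was -0.44. Hoxa4 had no read in control replicate 4, and with only genes above a mean of 1 RPKM the Hox4 difference over all libraries was -0.72. The cause was not tested. The edgeR test, the factor limma-voom fit, the fits without control replicates 2 and 4, and the centred fits were added after seeing the data.

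Same-numbered libraries of the 2 genotypes correlated across Hox genes at 0.21, 0.56, 0.15 and -0.02 in their deviations from the group means. Across the factors they correlated at 0.28, 0.58, 0.24 and -0.06. A correlation across genes removes the mean level of each library, so it cannot show whether same-numbered libraries share that level. The numbers were not taken as pairs in the main fit. With the replicate block limma called 0 Hox genes and 0 factors, and 1 Hox gene (Hoxa13) had an unadjusted p under 0.05. Against day 2.5 the block called 0 genes, with 3 at an unadjusted p under 0.05 and 32 lower, and against day 3 it called 0, with 1 and 32. An exact permutation test of 4 against 4 cannot give a p below 0.029, and its lowest over the Hox genes was 0.057.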
